A study of Mus musculus with 6 samples.

Results

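The genes described are 10 components of the Notch pathway, which were chosen by name from the 24015 gene symbols counted in each library. They comprise the receptors *Notch1*, *Notch2*, *Notch3* and *Notch4*, the ligands *Jag1* and *Jag2*, the target genes *Hey1*, *Heyl* and *Hes1*, and *Rbpj*, the DNA-binding mediator of the pathway. RNA-Seq was performed on sciatic nerves of mice at postnatal day 14, with 3 libraries from control and 3 from Rnf40ΔSC mice. Control mice were homozygous for a floxed *Rnf40* allele (Rnf40 fl/fl). Rnf40ΔSC mice carried the same floxed alleles together with a *Dhh::Cre* transgene, which is active in the Schwann cell lineage. The strain background of both groups is 129SvJ and C57Bl/6J in the sample labels and C3H and C57Bl/6J in the methods of the study. *Rnf40* encodes a subunit of the E3 ligase that attaches ubiquitin to histone H2B, and the comparison addresses what its loss from Schwann cells does to transcripts of the nerve. Each library was made from a pool of 3 nerves, so that endoneurial, perineurial, vascular and immune cells contributed RNA in addition to Schwann cells. In such bulk RNA, fewer cells of a type and less RNA per cell cannot be told apart.

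Notch receptors are transmembrane proteins that bind Jagged or Delta ligands on neighbouring cells. Ligand binding exposes the receptor to cleavage by an ADAM protease and then by gamma-secretase, and the released intracellular domain joins Rbpj and Mastermind coactivators at target genes such as those of the Hes and Hey families. In peripheral nerve, Notch signalling is known to promote the immature Schwann cell state and to oppose myelination, and in vessels it acts between endothelial and mural cells.

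The control libraries held 1317167, 1992622 and 2468765 assigned counts (replicates 1 to 3) and the Rnf40ΔSC libraries 2184268, 1459387 and 2186710, so that a single read stood for 0.405 to 0.759 CPM. Values per gene are normalized counts, which are counts brought to a common library size with TMM factors, and levels of different genes are compared only after division by the length of their exons in kb. The floxed gene was looked at beside the labels. Only exons 3 and 4 are floxed, and the counts cover the whole gene and all cells of the nerve, so they do not measure the deletion itself. *Rnf40* had 130.2, 126 and 142 normalized counts in control and 90.2, 90.4 and 94.2 in Rnf40ΔSC libraries, so that the genotypes did not overlap. Its log2 fold change was -0.54 (95% interval -0.82 to -0.26, adjusted p = 0.00242 by edgeR's quasi-likelihood F test, Benjamini-Hochberg adjusted). Scaled by total counts, the value was -0.27 and no longer passed (adjusted p = 0.12 by edgeR, range over the alternatives 0.00235 to 0.12). For *Rnf20*, which encodes the partner subunit, the log2 fold change was 0.44 (adjusted p = 0.00998 by edgeR).

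All 10 members had enough reads to be tested. Of these, 2 were higher in Rnf40ΔSC nerves (*Notch1* and *Notch2*), 1 was lower (*Jag1*), and 7 did not pass an adjusted p of 0.05. Among all 11371 genes tested, 15.4% were higher and 16.2% lower by the same rule. With the additional limits of an absolute log2 fold change of 0.8 and a base mean of 20 normalized counts, 1 member was higher (*Notch1*) and 0 were lower, against 3.73% and 5.05% of all genes tested. The median log2 fold change was -0.09 for the members and -0.003 for all genes tested. Scaling by total counts in place of TMM shifted the median of all genes by 0.27 on the log2 scale and changed the share of calls that were lower from 51.2% to 18.9%, so fold changes here are relative to the bulk of transcripts.

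**Figure D1:**
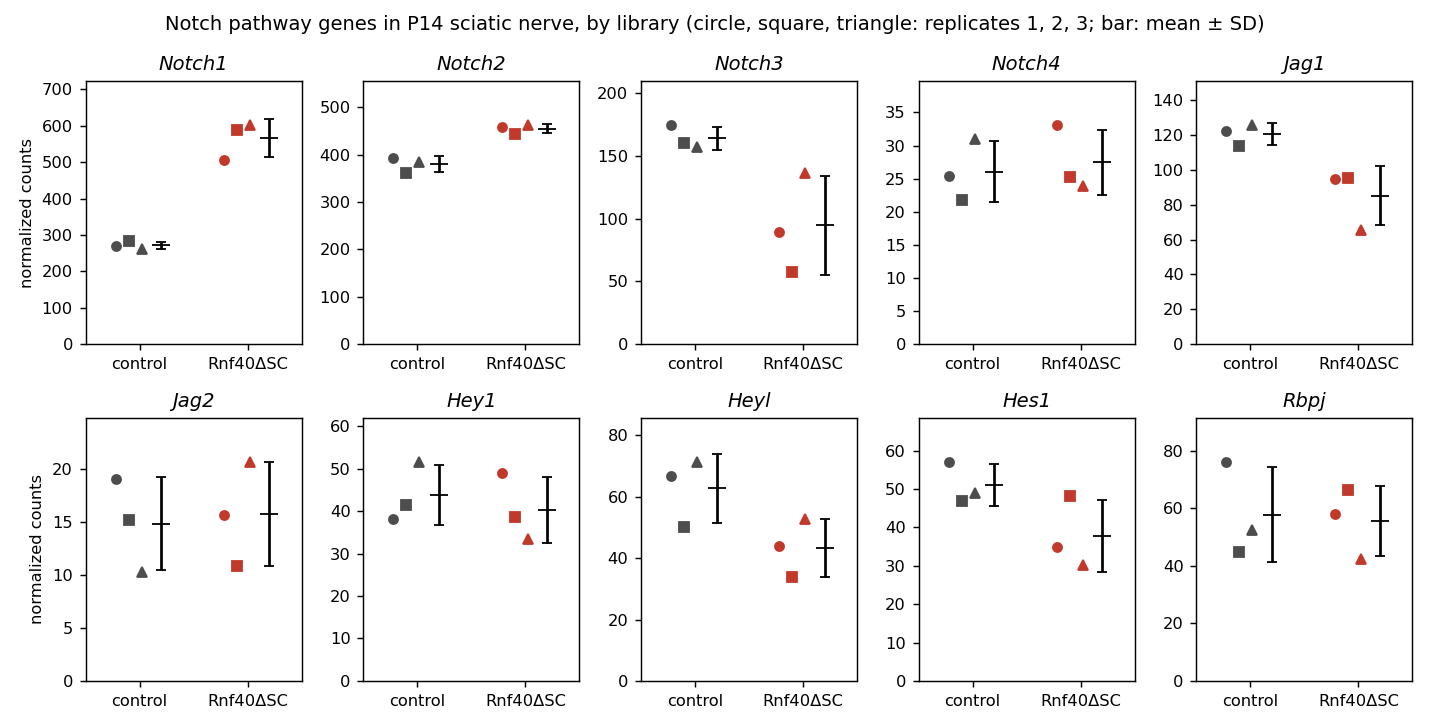
Normalized counts (vertical axes, each starting at 0) of the 10 members in the 3 control (grey) and 3 Rnf40ΔSC (red) libraries, with symbols for replicates 1 to 3 and bars for the mean ± SD. The genotypes are separate for *Notch1*, *Notch2*, *Notch3* and *Jag1* and overlap for the other members. Among all genes tested, 22% had all Rnf40ΔSC libraries above all controls and 21.6% had them below.

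Among the receptors, *Notch1* showed the clearest difference. *Notch1* (chromosome 2, 26313423 to 26372183 on the minus strand in mm9) had 269.9, 282 and 262 normalized counts in control and 506, 589 and 602 in Rnf40ΔSC libraries. All 3 Rnf40ΔSC libraries lay far above all 3 controls, and the controls were close to each other. *Notch1* rose 2.09-fold, a log2 fold change of 1.06 with a standard error of 0.10 (95% interval 0.86 to 1.26, adjusted p = 5.34e-11 by edgeR's quasi-likelihood F test, Benjamini-Hochberg adjusted). The call held in 13 of 13 alternative analyses, with log2 fold changes between 1.02 and 1.33. Complete separation in this direction was seen in 22% of all genes tested. In the annotation, 7.5% and 2.91% of the *Notch1* exon bases are overlapped by a pair of antisense noncoding genes, and the strand setting of the counting is not given in the sources used here.

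*Notch2*, which encodes the receptor with the highest level per kb in control nerves, had 394, 361 and 384 normalized counts in control and 458, 444 and 463 in Rnf40ΔSC libraries (chromosome 3, 97817461 to 97954290 on the plus strand). The groups were again separate, but the step between them was small. *Notch2* rose from a mean of 379 to 455 normalized counts (log2 fold change 0.26, 95% interval 0.07 to 0.45, adjusted p = 0.0287 by edgeR's quasi-likelihood F test, Benjamini-Hochberg adjusted). The call was lost with DESeq2 (adjusted p = 0.0665, and 0.0649 when a prior on the fold change was added) and in edgeR without control replicate 2 (0.12), control replicate 3 (0.0846) or Rnf40ΔSC replicate 1 (0.0632), within a range of 2.94e-05 to 0.12 over all alternatives.

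*Notch3* encodes the receptor best known from mural cells of blood vessels (chromosome 17, 32257765 to 32303825 on the minus strand). It had 175, 160.2 and 157 normalized counts in control and 89.4, 57.9 and 136 in Rnf40ΔSC libraries. Each Rnf40ΔSC library was below each control, as in 21.6% of all genes tested, but these 3 libraries differed widely among themselves and replicate 3 came close to the controls. The mean was 0.577 of control and the log2 fold change -0.75 (95% interval -1.34 to -0.15), which did not pass (adjusted p = 0.0596 by edgeR's quasi-likelihood F test, Benjamini-Hochberg adjusted). *Notch3* passed in 7 of 13 alternatives, among them DESeq2 without a prior (-0.76, adjusted p = 0.00771) and edgeR without Rnf40ΔSC replicate 3 (-1.09, adjusted p = 1.82e-07) or without Rnf40ΔSC replicate 2 (-0.52, adjusted p = 0.00816), over a range of 1.82e-07 to 0.197. Replicate 3 was the only Rnf40ΔSC library with muscle transcripts at the control level, as described below. Without it, genotype and muscle content cannot be told apart. An antisense noncoding gene overlaps 6.07% of the *Notch3* exon bases.

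*Notch4*, an endothelial receptor, was measured on few reads (chromosome 17, 34701213 to 34725448). It had 25.4, 21.8 and 31.0 normalized counts in control and 33.1, 25.3 and 23.9 in Rnf40ΔSC libraries. The groups overlapped, and the interval of the log2 fold change of 0.06 reached from -0.47 to 0.60, so that moderate differences in either direction were not detectable at this depth. Its sign changed without control replicate 2 or Rnf40ΔSC replicate 1.

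Per kb of exon, the summed level of the 4 receptors was 78.8 ± 2.32 normalized counts in control and 98.2 ± 7.02 in Rnf40ΔSC nerves (SD, n = 3 each), 1.25-fold higher. *Notch1* made up 24.2 ± 1.40% of this sum in control and 40.5 ± 3.26% in Rnf40ΔSC libraries. The share of *Notch2* was 45.8 ± 1.02% and 44.2 ± 2.46%. *Notch3* accounted for 26.7%, 25.9% and 24.9% in control and for 11.8%, 7.65% and 16.0% in Rnf40ΔSC libraries, and *Notch4* for 4.10 ± 0.723% and 3.50 ± 0.792%. The composition of the receptor transcripts thus differed mainly in *Notch1* and *Notch3*, whose shares did not overlap between genotypes, while those of *Notch2* and *Notch4* did. Shares are parts of a whole, so the rise of *Notch1* by itself lowers the shares of the other receptors. In level per kb, *Notch2* went from 36.1 to 43.3 and *Notch3* from 20.4 to 11.8. The *Notch3* difference did not pass (adjusted p = 0.0596 by edgeR). These shares depend on the length assigned to each gene. With the longest transcript in place of all exons, the *Notch1* share was 32.1% in control and 50.2% in Rnf40ΔSC nerves and that of *Notch3* 22.9% and 9.77%.

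**Figure D2:**
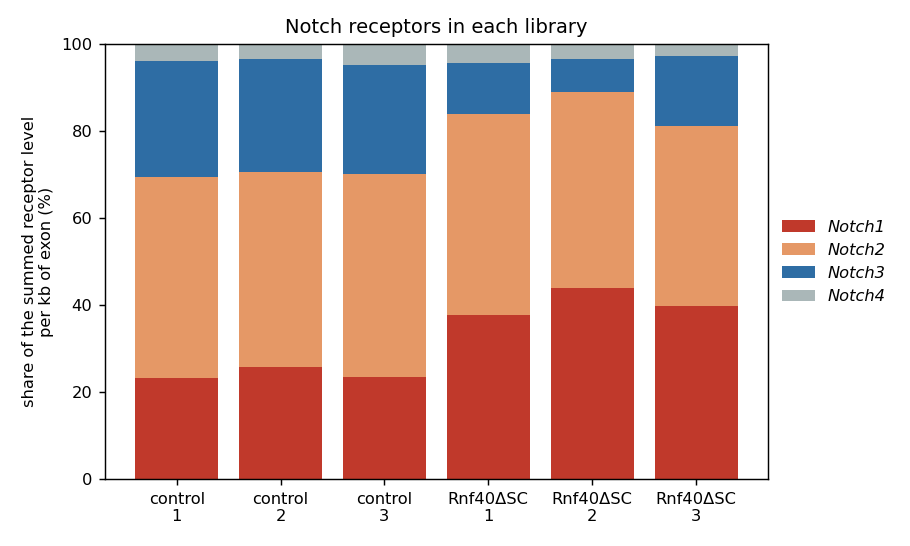
Share of each receptor (stacked bars, in percent) in the summed level of *Notch1* to *Notch4* per kb of exon, for each of the 6 libraries. The *Notch1* segment is larger and the *Notch3* segment smaller in the Rnf40ΔSC libraries, of which replicate 2 has the smallest *Notch3* share (7.65%).

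Of the Jagged ligands, *Jag1* (chromosome 2, 136907192 to 136942380 on the minus strand) was the more abundant, with 20.7 against 3.67 normalized counts per kb for *Jag2* in control nerves. *Jag1* had 122, 113 and 126 normalized counts in control and 94.4, 95.2 and 65.4 in Rnf40ΔSC libraries. No Rnf40ΔSC library reached the lowest control, and replicate 3 was the lowest. *Jag1* fell to 0.706 of control (log2 fold change -0.52, 95% interval -0.83 to -0.20, adjusted p = 0.00922 by edgeR's quasi-likelihood F test, Benjamini-Hochberg adjusted). The call was lost with total-count scaling (-0.25, adjusted p = 0.206), with DESeq2 (adjusted p = 0.0818, and 0.0797 when the prior was added), and in edgeR without control replicate 3 (0.0632) or Rnf40ΔSC replicate 3 (log2 fold change -0.34, adjusted p = 0.084), over a range of 0.00639 to 0.206.

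*Jag2* (chromosome 12) had 19.1, 15.3 and 10.3 normalized counts in control and 15.7, 10.8 and 20.7 in Rnf40ΔSC libraries. The groups overlapped fully, and the log2 fold change was 0.18 (95% interval -0.55 to 0.91, adjusted p = 0.746 by edgeR). Its sign depended on control replicate 3 and Rnf40ΔSC replicate 3.

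The targets *Hes1*, *Heyl* and *Hey1* encode basic helix-loop-helix repressors. *Hes1* (chromosome 16) had 57.2, 46.9 and 49.1 normalized counts in control and 34.8, 48.2 and 30.3 in Rnf40ΔSC libraries. Replicate 2 of Rnf40ΔSC lay among the controls, and replicates 1 and 3 were below them. The log2 fold change of -0.45 (95% interval -0.89 to -0.01) did not pass (adjusted p = 0.113 by edgeR), except without Rnf40ΔSC replicate 2 (-0.63, adjusted p = 0.0439, range 0.0439 to 0.536).

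*Heyl* (chromosome 4), which is known from vascular smooth muscle, had 66.7, 50.1 and 71.4 normalized counts in control and 43.9, 33.7 and 52.7 in Rnf40ΔSC libraries. The genotypes overlapped in control replicate 2 and Rnf40ΔSC replicate 3. Its log2 fold change of -0.51 (95% interval -0.92 to -0.09, adjusted p = 0.0542 by edgeR) was close to the threshold, and it passed without control replicate 2 (-0.65, adjusted p = 0.0296) or without Rnf40ΔSC replicate 3 (-0.66, adjusted p = 0.0176), over a range of 0.0176 to 0.372. *Hey1* (chromosome 3) had 38.1, 41.4 and 51.6 normalized counts in control and 48.8, 38.6 and 33.5 in Rnf40ΔSC libraries. No separation was visible, and the interval of its log2 fold change of -0.14 ran from -0.58 to 0.30, with a sign that turned when control replicate 3 was left out or total counts set the scale.

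*Rbpj* (chromosome 5) had 76.2, 44.7 and 52.5 normalized counts in control and 58.0, 66.3 and 42.3 in Rnf40ΔSC libraries. The spread within each genotype exceeded the difference between them. The log2 fold change was -0.04 (95% interval -0.47 to 0.39, adjusted p = 0.906 by edgeR), and its sign turned when control replicate 1 or Rnf40ΔSC replicate 3 was left out or total counts set the scale.

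**Figure D3:**
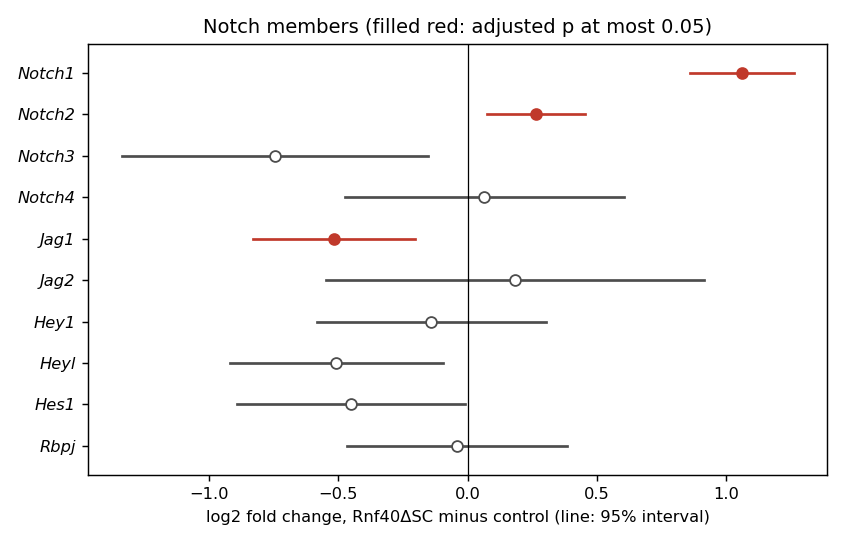
Log2 fold changes (Rnf40ΔSC minus control) of the 10 members with their 95% intervals, where filled red points passed an adjusted p of 0.05. *Notch1* is the highest at 1.06, and the unadjusted intervals of *Notch3*, *Heyl* and *Hes1* lie below 0 although these genes did not pass after adjustment.

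The order of the levels per kb of exon differed between the genotypes. In control nerves *Notch2* was highest with 36.1 ± 1.62 normalized counts per kb (SD, n = 3), followed by *Hes1* with 25.1 ± 2.66. *Jag1* (20.7 ± 1.09), *Notch3* (20.4 ± 1.19), *Hey1* (19.9 ± 3.20) and *Notch1* (19.1 ± 0.726) came next. Within these 4, each overlapped the next, and *Notch1* was apart from *Heyl* below. *Jag1* was apart from *Hes1*, the next above it, but the highest *Hey1* value (23.4) overlapped the lowest of *Hes1* (23.0). *Heyl* (12.3 ± 2.19) and *Rbpj* (9.94 ± 2.82) also overlapped, as did *Jag2* (3.67 ± 1.08) and *Notch4* (3.23 ± 0.575) at the bottom. In Rnf40ΔSC nerves *Notch2* (43.3 ± 0.953) and *Notch1* (39.8 ± 3.68) overlapped and stood apart from all other members. *Hes1* (18.5 ± 4.57), *Hey1* (18.3 ± 3.55), *Jag1* (14.6 ± 2.91), *Notch3* (11.8 ± 4.92), *Rbpj* (9.54 ± 2.09) and *Heyl* (8.49 ± 1.85) followed, each overlapping the next. With the longest transcript as length, the control level was 28.6 per kb for *Notch1*, 34.8 for *Hes1* and 3.95 for *Notch4*, so that the place of *Notch1* in the order rests on the gene model.

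Promoter sequences from RefSeq (GRCm38.p6) were matched by symbol for 7 of the 10 members, in 8 windows of 250 bases before to 50 after the start, and were located in mm9 by exact match. There was no entry for *Hes1*, *Hey1* and *Heyl*. The upstream bases outside annotated exons are shown for the 3 members that passed the test and for *Rbpj*, where the core of the Rbpj binding site was found. These genes were chosen after their values were seen. The sequences are on the strand of the gene, with matches in capitals, and lie in mm9 at chr2:26359345-26359592 (minus strand, inside the annotated gene body), chr3:97817211-97817460 (plus strand, directly before the annotated gene), chr2:136942381-136942506 (minus strand, directly before the annotated gene) and chr5:53981335-53981453 (plus strand, inside the annotated gene body).
Notch1: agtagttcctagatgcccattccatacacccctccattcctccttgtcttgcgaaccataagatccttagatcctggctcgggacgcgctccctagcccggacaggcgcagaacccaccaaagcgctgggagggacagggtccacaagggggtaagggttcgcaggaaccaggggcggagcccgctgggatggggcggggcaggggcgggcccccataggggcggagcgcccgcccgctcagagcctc
Notch2: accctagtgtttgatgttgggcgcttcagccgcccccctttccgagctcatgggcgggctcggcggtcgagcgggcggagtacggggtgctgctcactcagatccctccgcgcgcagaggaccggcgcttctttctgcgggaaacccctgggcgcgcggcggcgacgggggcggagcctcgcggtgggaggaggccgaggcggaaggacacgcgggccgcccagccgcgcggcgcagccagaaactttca
Jag1: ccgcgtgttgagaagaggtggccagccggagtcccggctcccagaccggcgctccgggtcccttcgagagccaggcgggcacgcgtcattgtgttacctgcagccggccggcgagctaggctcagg
Rbpj: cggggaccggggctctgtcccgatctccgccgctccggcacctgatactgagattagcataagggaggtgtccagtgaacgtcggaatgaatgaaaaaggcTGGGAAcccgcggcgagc

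The letters TGGGAA were searched on both strands of all 32851 promoter windows of 300 bases and occurred in 25.6% of them, and GTGGGAA, which contains TGGGAA, in 6.38%. Of the members' 8 windows, TGGGAA was present only in the 2 overlapping windows of *Rbpj*, of whose matches 1 lies in the bases shown, and GTGGGAA in 0. The Egr motif letters GTGGGCG (7.97% of all windows) and GCGTGGGCG (0.612%), of which the second contains the first, were added after the data had been seen and occurred in 0 of the 8. A match describes these letters in this window and nothing on binding.

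The wider pathway was covered by 64 further genes, of which 52 were tested. Of these, 9 were higher, 11 lower and 32 did not pass, with a median log2 fold change of -0.01. Of all genes tested, 15.4% were higher and 16.2% lower, which is the reference for the counts by role given next. Across all alternatives run, 8 of the 20 calls held each time (*Cntn1*, *Adam10*, *Maml3*, *Crebbp*, *Ncor1*, *Kdm5a*, *Ctbp2* and *Tle2*), as did 1 of the 3 calls among the members (*Notch1*).

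Of 8 other ligands, 5 were tested, and 3 were lower and 0 higher by edgeR's quasi-likelihood F test, Benjamini-Hochberg adjusted. *Cntn1*, which encodes the adhesion molecule contactin-1, described as a noncanonical Notch ligand, had 65.1, 69.7 and 51.6 normalized counts in control and 9.11, 13.3 and 7.18 in Rnf40ΔSC libraries. The genotypes were far apart, and *Cntn1* fell to 0.158 of control (log2 fold change -2.68, adjusted p = 5.35e-10 by edgeR). *Dlk1*, a transmembrane protein related to Delta, and *Nov*, a secreted matricellular protein, had log2 fold changes of -0.49 (adjusted p = 0.000255 by edgeR) and -0.45 (adjusted p = 0.000391), and neither passed with total-count scaling (0.0924, range 3.12e-05 to 0.0924, and 0.125, range 0.000178 to 0.125). The canonical Delta ligands were near the limit of detection. *Dll1* had between 8.61 and 19.3 and *Dll4* between 9.11 and 18.4 normalized counts per library, with log2 fold changes of 0.31 (95% interval -0.46 to 1.09) and -0.22 (95% interval -0.98 to 0.53). With a single library left out, the values ran from 0.079 to 0.50 for *Dll1* and from -0.65 to -0.005 for *Dll4*. *Dll3* and *Dlk2* had at most 1 raw count and *Dner* at most 5 in any library.

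In the group of receptor cleavage, 2 of 9 genes tested were lower and 0 higher. *Adam10*, the main protease of the first cleavage after ligand binding, had 2359.5, 2521 and 2318 normalized counts in control and 1199, 1289.6 and 1077 in Rnf40ΔSC libraries. This was a clean separation of the genotypes, and *Adam10* fell to 0.495 of control (log2 fold change -1.01, 95% interval -1.19 to -0.84, adjusted p = 3.11e-12 by edgeR's quasi-likelihood F test, Benjamini-Hochberg adjusted), with values between -1.07 and -0.75 over all alternatives. The related *Adam17* fell slightly, by -0.30 on the log2 scale (adjusted p = 0.0298 by edgeR) and lost its call in 6 of 13 alternatives. The gamma-secretase genes *Psen2*, *Ncstn*, *Aph1a*, *Aph1b* and *Aph1c* had log2 fold changes from -0.42 (*Psen2*) to 0.21 (*Aph1c*) and did not pass. Among 5 glycosyltransferases, *Pofut1*, which adds O-fucose to the receptors, was lower (-0.43, adjusted p = 0.0373 by edgeR), a call that was lost in 9 of 13 alternatives.

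Ubiquitin ligases and endocytic regulators included 2 higher and 2 lower genes of 13 tested, against 15.4% and 16.2% of all genes tested. *Fbxw7*, whose product targets the intracellular domain for degradation, rose by 0.60 on the log2 scale (adjusted p = 0.0216 by edgeR's quasi-likelihood F test, Benjamini-Hochberg adjusted), and *Aak1*, an endocytic kinase gene, by 0.36 (0.00891). *Numbl* had -0.52 (adjusted p = 0.0151 by edgeR) and the ligase gene *Dtx4* -0.37 (0.0138). Each of these 4 calls was lost in at least 3 alternatives.

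Among coactivators of the Rbpj complex, 3 of 7 were higher and 1 lower. *Maml3*, a Mastermind gene, had 111, 77.4 and 93.8 normalized counts in control and 142, 162 and 164 in Rnf40ΔSC libraries. All Rnf40ΔSC libraries exceeded all controls, and *Maml3* rose 1.66-fold (log2 fold change 0.75, adjusted p = 7.91e-05 by edgeR's quasi-likelihood F test, Benjamini-Hochberg adjusted). The acetyltransferase gene *Crebbp* rose by 0.40 on the log2 scale (adjusted p = 0.00453 by edgeR) and *Snw1* by 0.34 (0.0356), and *Kat2b*, another acetyltransferase gene, had -0.53 (0.0129). An antisense gene overlaps 42.4% of the *Snw1* exon bases. *Maml1* and *Maml2* did not pass.

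Corepressor genes moved in both directions, with 4 higher and 2 lower of 12 tested. *Kdm5a*, a histone demethylase gene, had 68.3, 98.1 and 91.2 normalized counts in control and 145, 160.3 and 131 in Rnf40ΔSC libraries, and *Ctbp2* had 69.9, 70.8 and 67.1 in control and 103, 108 and 124 in Rnf40ΔSC libraries. In both genes the genotypes were separate. They rose by log2 fold changes of 0.73 and 0.70 (adjusted p = 0.000166 and 0.000518 by edgeR's quasi-likelihood F test, Benjamini-Hochberg adjusted). *Ncor1* had 0.38 (adjusted p = 0.00159 by edgeR) and *Tle3* 0.30 (0.0486). The genotypes overlapped for *Tle3*, and its log2 fold change was 0.18 without Rnf40ΔSC replicate 2 (adjusted p = 0.283 by edgeR). The Groucho family genes *Tle1* and *Tle2* had log2 fold changes of -0.65 (adjusted p = 0.00179 by edgeR) and -0.83 (0.00185), opposite in sign to *Tle3*, whose call was lost in 7 of 13 alternatives. *Fhl1*, which is also abundant in muscle, had 414, 399 and 391 normalized counts in control and 254, 227 and 421 in Rnf40ΔSC libraries and did not pass.

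Of the other Hes and Hey genes and *Nrarp*, only *Nrarp* had enough reads for a test. This target, which encodes a feedback inhibitor of Notch, had 28.6, 32.7 and 30.1 normalized counts in control and 28.2, 19.3 and 29.5 in Rnf40ΔSC libraries. The groups overlapped, and the log2 fold change was -0.22 (95% interval -0.75 to 0.30), with the opposite sign under total-count scaling. *Hey2* had at most 8 raw counts in any library and was not tested. Its normalized values were 9.53, 5.45 and 6.89 in control against 4.14, 2.41 and 4.79 in Rnf40ΔSC libraries. All of the latter were below all of the former, as in 21.6% of all genes tested. Its raw counts, 6, 5 and 8 against 5, 2 and 6, overlapped. Raw counts of *Hes6* were 8, 6 and 5 against 7, 2 and 2. *Hes5* had 2 counts in control replicate 3 and 0 elsewhere, and *Hes2*, *Hes3* and *Hes7* had at most 1. These genes had too few reads for a test at this depth.

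**Figure D4:**
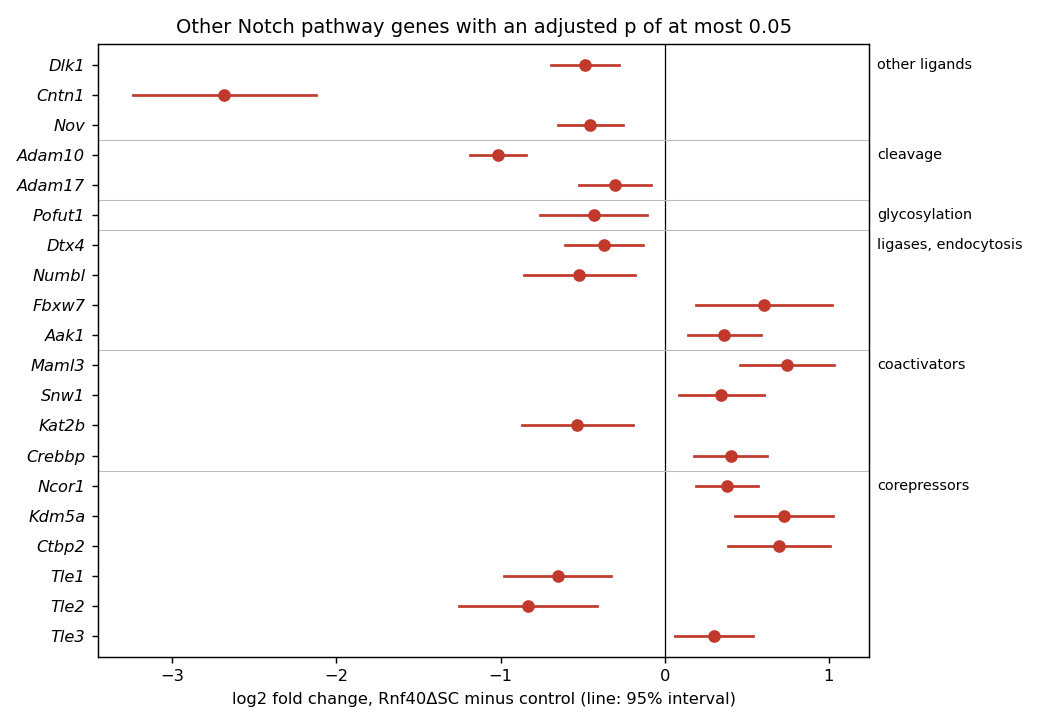
Log2 fold changes (Rnf40ΔSC minus control) with 95% intervals of the 20 other pathway genes that passed an adjusted p of 0.05, grouped by role. Of these, 9 were higher and 11 lower, with *Cntn1* at -2.68 the lowest.

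Cell type markers were examined because receptors and ligands of the pathway are spread over several cell types of the nerve. The reference for all marker counts is again the 16.2% lower and 15.4% higher among all genes tested. Of 16 endothelial markers tested, 6 were lower and 0 higher by edgeR, with a median log2 fold change of -0.52. Their summed level was 2044, 1776 and 1997 normalized counts in control and 1365, 1390 and 1549 in Rnf40ΔSC libraries, and the most abundant was *Cdh5* (log2 fold change -0.51). All 12 markers of pericytes and smooth muscle cells were tested, of which 7 were lower and 0 higher (median -0.54). They summed to 3169, 2443 and 2701 in control and to 1761, 1797 and 2198 in Rnf40ΔSC libraries, with *Pdgfrb* as the most abundant (log2 fold change -0.65). Both sums were lower in every Rnf40ΔSC library than in every control, highest among Rnf40ΔSC libraries in replicate 3, and no marker of these lists was at 0 in all libraries. The mural list includes *Des*, which is also a muscle gene and had 28.2, 25.3 and 165 normalized counts in Rnf40ΔSC replicates 1 to 3. Without *Des*, a sum added after the data had been seen, the mural sums of these replicates were 1733, 1772 and 2033. These counts under the alternatives were added after the data had been seen. With total-count scaling, 1 endothelial and 4 mural markers were lower, and without Rnf40ΔSC replicate 3, 7 and 10. *Notch3*, *Heyl*, *Jag1* and *Hes1* had lower mean values alongside these lists, whereas the endothelial receptor gene *Notch4* was at 1.05 and *Hey1* at 0.922 of control. Lower sums were not particular to vascular cells. Beside endothelial (0.74 of control) and mural markers (0.69), they were seen for fibroblast (0.71), perineurial (0.56), macrophage (0.70) and adipocyte markers (0.72). Sums of proliferation (1.56) and neuronal markers (1.31) were higher. The part of vascular cells in the values of the members was not tested.

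Skeletal muscle markers separated libraries within a genotype. The 8 markers summed to 7737, 5753 and 4281 normalized counts in control, to 168 and 411 in Rnf40ΔSC replicates 1 and 2 and to 5344 in replicate 3. The library of Rnf40ΔSC replicate 3 thus held muscle transcripts at the level of the controls, and replicates 1 and 2 had few. Their most abundant gene was *Myh4*, and 0 of the 8 passed the test. Among Rnf40ΔSC libraries, *Notch1*, *Notch2*, *Notch3*, *Jag2* and *Heyl* were likewise highest in replicate 3, whereas *Notch4*, *Jag1*, *Hey1*, *Hes1* and *Rbpj* were lowest there. The part of muscle in these values was not tested. For *Notch3* the difference was larger without Rnf40ΔSC replicate 3, as given above, and for *Jag1* it was smaller. In any analysis without this library, the remaining Rnf40ΔSC libraries had few muscle transcripts and the controls many. Genotype and muscle content cannot be told apart there. *Notch1* had a log2 fold change of at least 1.02 with any single library left out.

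Schwann cell genes moved in both directions. Of 6 genes of the whole lineage, 5 were lower and 1 higher by edgeR, with a median log2 fold change of -0.73, and of 8 genes of myelinating Schwann cells, 7 were lower and 1 higher, with a median of -1.79. *S100b*, of the first list, had a log2 fold change of -0.89. The sums of both lists are not used here. Of 7 genes of immature, promyelinating or non-myelinating Schwann cells, 4 were higher, 2 were lower (*Ngfr*, log2 fold change -0.90, and *L1cam*, -1.87) and 1 did not pass (*Jun*). Their median log2 fold change was 1.16. The higher genes were *Pou3f1*, *Ncam1* (1.16), *Sox2* (1.96) and *Gfap* (2.31, on at most 17 raw counts per library). The 7 genes summed to 1399, 1458 and 1361 normalized counts in control and to 2614, 3280 and 2626 in Rnf40ΔSC libraries. The most abundant was *Pou3f1* (log2 fold change 2.05), which marks promyelinating rather than immature cells and made up most of the 2.02-fold difference. Without it, a sum added after the data had been seen, the values were 984.5, 1065 and 1031 in control and 1222, 1380 and 1232 in Rnf40ΔSC libraries (1.24-fold). This remaining difference came from *Ncam1*, with means of 349.9 and 787. It does not describe the list, since *Sox2* (means of 21.8 and 84.9) and *Gfap* also rose, while *Ngfr* and *L1cam* fell. What part the state or the number of Schwann cells had in the *Notch1* difference was not tested.

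Other cell types were also represented, and their sums are given in normalized counts for control and then Rnf40ΔSC replicates 1 to 3. Of 9 fibroblast markers, 8 were lower and 0 higher by edgeR, with sums of 104800, 102300 and 111000 against 78240, 75000 and 74110 and *Col3a1* as the most abundant (log2 fold change -0.49). Of 6 perineurial markers tested, 4 were lower, with sums of 1856, 2117 and 2093 against 1215, 1027 and 1159, and *Itgb4* (-1.69) was the most abundant. Most of this difference came from *Itgb4*, with means of 897 and 277, and without it, a sum added after the data had been seen, the fold was 0.761. Bulk RNA does not show whether perineurial cells, Schwann cells or others held the *Itgb4* transcripts. Its fall is therefore not read as a change of perineurial cells. Macrophage markers were lower in 5 of 8 tested (857, 762 and 817 against 556, 552 and 589), with *Csf1r* the most abundant (log2 fold change -0.63). *Aif1* had 3 raw counts or fewer in every library. Adipocyte markers, with *Fabp4* the most abundant, were lower in 2 of 5 (1934, 1468 and 2501 against 1634, 1468 and 1147). Proliferation markers were higher in 2 of 4 tested (160.4, 169 and 184 against 246, 254 and 301), with *Mki67* the most abundant (log2 fold change 0.64). Of 5 neuronal markers, 2 were tested, of which 1 was higher (*Snap25*, with means of 6.06 and 17.7) and the other, *Stmn2*, had the opposite sign and did not pass (-0.72, adjusted p = 0.142 by edgeR). The 5 markers had sums of 30.2, 31.6 and 36.2 against 50.5, 39.8 and 38.3, with *Stmn2* as the most abundant and *Rbfox3* at 3 raw counts or fewer in every library. The part of these cells in the values of the pathway genes was not tested.

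**Figure D5:**
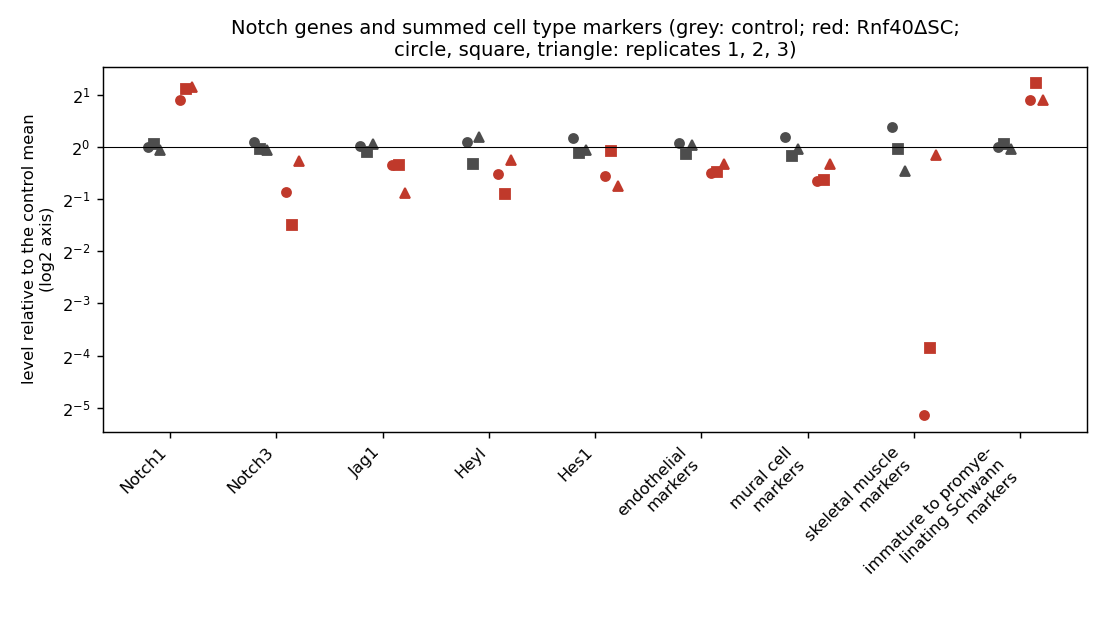
Level relative to the control mean (log2 axis) of 5 members and of the summed markers of 4 cell types, for each control (grey) and Rnf40ΔSC (red) library. *Notch1* and the sum of the immature to promyelinating Schwann cell markers are raised in all Rnf40ΔSC libraries, the sum mostly through *Pou3f1*, and the muscle markers of replicate 3 lie with the controls while those of replicates 1 and 2 do not.

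The listed genes whose pattern was most like that of each member were found by Pearson correlation of log2 CPM over the 6 libraries, among 152 candidates. These values describe 6 points that fall into 2 genotypes and share their libraries and scaling. *Notch1* was most like *Ctbp2* (r = 0.99), *Ncam1* (0.986) and *Pou3f1* (0.985), and *Notch2* most like *Aak1* (0.986), *Maml3* (0.967) and *Sox2* (0.952). *Notch3* was most like the endothelial gene *Kdr* (0.977), then *Numbl* (0.971) and *Kat2b* (0.957), and *Heyl* most like the endothelial gene *Tie1* (0.966), then *Kat2b* (0.951) and *Plin1* (0.94). For *Jag1* the closest were *Ramp2* (0.932), *S100b* (0.902) and *Pofut1* (0.90), and for *Hes1* they were *Jag1* and *Mcam* (0.872 each) and *Emr1* (0.852). *Notch4* was closest to *Itch* (0.908), *Hey1* (0.772) and *Aph1c* (0.727), *Jag2* to *Dtx3* (0.846), *Cnn1* (0.833) and *Cx3cr1* (0.632), *Hey1* to *Tle4* (0.908), *Fabp4* (0.773) and *Notch4* (0.772), and *Rbpj* to *Esam* (0.801), *Efnb2* (0.668) and *Hes1* (0.629).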

How the data were processed

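RNA-Seq libraries were made from sciatic nerves at postnatal day 14. According to the methods of the study, the authors aligned reads to mm9 with TopHat and deposited HTSeq counts per gene, which are raw counts without normalization. The submitters' processing notes name Bowtie2, HTSeq, DESeq2 and both mm9 and mm10. The annotation and strand setting used for counting are not given in the sources used here, and the library kit and mouse strain differ between methods and labels, equally for all 6 libraries. Here the counts were compared with edgeR 4.0.16 under R 4.3.3 (filterByExpr, TMM, robust quasi-likelihood fit, genotype as the only term, Benjamini-Hochberg adjustment over 11371 genes), and the code was tested on simulated data. Normalized counts are scaled to the arithmetic mean of the effective library sizes. Standard errors and 95% intervals come from the fit and were not adjusted. Exon lengths and positions come from GENCODE vM1 (mm9). Replicates differed beyond sampling noise (chi-square per degree of freedom 1.78 to 5.21). Alternatives were RLE or total-count scaling, DESeq2 1.42.0 (also with a prior on the fold change), the low-count filter omitted or replaced by 10 counts per library, a block for replicate numbers, omission of single libraries, and the longest transcript as length.

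The members and gene lists were chosen with earlier results of these data known. Genes named were all members, *Rnf40* and *Rnf20*, each called gene, ligand and Hes or Hey gene of the other pathway list, the most abundant gene of each marker list used and the 3 genes most like each member. Others named in the text (*Psen2*, *Ncstn*, *Aph1a*, *Aph1b*, *Aph1c*, *Maml1*, *Maml2*, *Fhl1*, *Ngfr*, *L1cam*, *Gfap*, *Jun*, *Des*, *Snap25*, *Aif1* and *Rbfox3*) were chosen after their values were seen. Promoters were to be shown for Rbpj targets among the members. Those shown, and the Egr motifs, were chosen later. The scale of the normalized counts was not fixed beforehand. After the numbers of genes past the limits were seen, the geometric mean of the library sizes was tried because it gave the numbers of an earlier analysis of these data. The first scale was kept, and both results are given.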

Additional observations from a re-analysis of the deposited data

How the results depend on the processing

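Among the numbers of genes called, 1841 were lower and 1756 higher. They became 880 and 3766 with total-count scaling, 1170 and 1094 with DESeq2 without and 1184 and 1120 with a fold-change prior, and 574 and 424 with the limits on fold change and base mean. With normalized counts at the geometric mean library size, tried after seeing the data, the last pair was 567 and 415.

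Lower members (1) numbered 0 with total-count scaling, 2 without a low-count filter, 2 with at least 10 counts in every library and 0 to 3 with a library left out. Higher members (2) numbered 1 with DESeq2 with or without a prior and 1 to 2 with a library left out. Other pathway genes lower (11) numbered 3 with total-count scaling, 6 with DESeq2 with or without a prior and 6 to 11 with a library left out, and those higher (9) 18 and 5 under the first and second of these. The cause was not tested.

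With the replicate number as a replicate block, 3 members were lower, as *Notch3* (-0.80, adjusted p = 0.00708 by edgeR) and *Heyl* (-0.53, adjusted p = 0.0405) passed in addition. Same-numbered libraries did not deviate together (r = -0.0948, -0.015 and -0.0621), so no pairing by number was visible. With 3 libraries per genotype these values cannot settle whether samples were paired, and the labels do not state it.

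Signs turned for genes that did not pass. Under total-count scaling the log2 fold change was 0.13 for *Hey1*, 0.23 for *Rbpj*, 0.047 for *Dll4* and 0.044 for *Nrarp*. With a library left out, values ran from -0.093 to 0.24 for *Notch4*, -0.064 to 0.36 for *Jag2*, -0.31 to 0.014 for *Hey1* and -0.19 to 0.16 for *Rbpj*. Of the remaining values of single genes, levels and marker lists, 407 kept direction and call, 69 lost and 11 gained the call, and 5 moved. With 3 libraries per genotype and at most 2468765 counts in each, genes with few reads could not be resolved. P-values measure the spread between pools of nerves.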
